A study of Nannospalax ehrenbergi and Mus musculus with 25 samples.

Results

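The elastic fiber and lysyl oxidase genes described here comprise 10 genes: elastin (Eln), the fibrillins Fbn1 and Fbn2, the fibulins Fbln1, Fbln2 and Fbln5, the EMILINs Emilin1 and Emilin2, and the lysyl oxidases Lox and Loxl2. They were chosen by name, and 10 of 10 were found in both deposited tables, which list 27988 genes for the blind mole rat Spalax and 47593 for the house mouse. The choice was made with earlier results of these data known, in which Fbn2, Fbln5 and Emilin2 had stood out among tumor differences. The differences of the members that involve tumor libraries are therefore given as descriptions, with their standard errors (SE) and without a p-value. Where the number of members past the threshold is given for such a comparison, it stands beside the share of all genes past it, and nothing is read from it. Adjusted p-values of members are given only between muscle groups. Muscle from the uninjected side of tumor-bearing animals is also an arm of differences that involve tumor libraries. The p-values of comparisons that use it are therefore not free of the choice of members.

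RNA-seq was done on neck muscle and tumors after a single subcutaneous injection of 3-methylcholanthrene (3MCA), a carcinogen that damages DNA and induces sarcomas. Spalax were wild-caught, and their age was estimated as about 2 years to 10 years or more. Mice were C57BL/6 of 3 to 4 months. Where a tumor grew, it was sampled as the injected side (IS), and muscle from the opposite side of the neck as the uninjected side (UIS). The 16 Spalax libraries were 4 untreated controls (all female), 4 tolerant animals that were injected with 1 mg of 3MCA and grew no tumor by 18 or 30 months (3 male, 1 female), 2 females with a granuloma at 14 and 16 months, and 1 female and 1 male with a fibrosarcoma at 18 and 30 months, the last 4 animals each giving 1 UIS and 1 IS library. The granulomas were benign spindle cell growths with fibrosis, and the fibrosarcomas malignant. The 9 mouse libraries were 3 untreated controls, and UIS and IS of 3 males with a fibrosarcoma 11 to 14 weeks after 200 µg of 3MCA. Tolerant libraries came from the injected side, controls from untreated animals. Libraries of a group came from different animals, and animals are named by their number.

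Elastic fibers give skin, vessels and connective tissue their recoil. A core of elastin is laid down on a scaffold of fibrillin microfibrils, and fibulins and EMILINs help to join the core to the scaffold and to cells. Lysyl oxidases are copper enzymes that oxidize lysines of elastin and of fibrillar collagens, which lets the chains crosslink. In skeletal muscle these genes are expressed mainly by fibroblasts and vessel cells rather than by the fibers.

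The 16 Spalax libraries held 17025447 to 23386729 reads, and the 9 of mouse 22143060 to 31179183. Values are normalised counts, which are reads divided by a size factor of the library. Differences are log2 differences on log2(normalised count + 1). The labels give muscle for the IS libraries too, but the defining markers of muscle were far lower in them, though none of those in the tables was at 0 in any library. The sum of the skeletal muscle fiber markers was 942241 to 2875459 in the 12 Spalax muscle libraries and 162 to 3950 in the 4 Spalax tumors. In mouse it was 974764 to 4374828 in muscle and 190 to 75616 in tumors. Across the same libraries the sum of 8 fibroblast markers was 8606 to 198021 in Spalax muscle and 120166 to 1844592 in tumors, and that of 6 macrophage markers was 992 to 14156 and 9003 to 36214. In mouse the fibroblast sum was 5227 to 61404 in muscle and 143208 to 170668 in tumors, and that of 7 macrophage markers was 387 to 4591 and 3207 to 20284. Between IS and UIS, in the order granuloma, fibrosarcoma and mouse, 24.3%, 36.3% and 45.1% of all genes tested were called. Those called higher were 11.7%, 17.4% and 22.8%. In that order, 6, 2 and 5 of 8 fibroblast markers were called higher and 0 lower. The collagen genes Col1a1 and Col1a2 were among them in each, whereas Dcn differed by 1.22, -0.31 and 0.12 and Thy1 by -2.50, -1.37 and 4.74, of which the last passed the threshold. Of the macrophage markers 4 of 6, 3 of 6 and 4 of 7 were called higher, and of the muscle fiber markers 7 of 7, 7 of 7 and 7 of 8 lower. In the same order, 2 of 3, 4 of 5 and 5 of 5 adipocyte markers tested were called lower, 2, 3 and 3 of 6 nerve sheath markers, and 0, 3 and 1 of 6 endothelial markers, with 0 higher. Of 7 smooth muscle markers 2 were called lower in each and 1 higher in mouse. Of the cartilage and tendon markers 1 of 6 was called higher in granuloma, 3 of 6 lower in fibrosarcoma and 1 of 4 higher in mouse. In whole tissue, more cells of a type cannot be told apart from more RNA per cell, and the part of these markers in the differences below was not tested.

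In tumors, the crosslinking enzymes, the fibrillins and the EMILINs were higher than on the uninjected side in both species, whereas elastin itself was not higher in every tumor and was lower in mouse. Lox, Loxl2, Fbn1, Fbn2, Emilin1 and Emilin2 were higher with no overlap between IS and UIS libraries in Spalax granuloma, Spalax fibrosarcoma and mouse fibrosarcoma. That is 6 of 10 members, beside 18.7% of the 10965 genes tested in all 3 comparisons, and nothing is read from the count. In Spalax fibrosarcoma neither Fbn1 nor Fbn2 was past the threshold by limma, and Fbn2 lay within the range of Spalax muscle. The median log2 difference of the 10 members was 3.97 in granuloma, 2.50 in fibrosarcoma and 2.81 in mouse, beside medians of -0.01, 0.03 and 0.11 over all genes tested. Scaling by total reads moved the last 3 values to 0.72, 0.83 and 1.16.

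The number of members whose IS and UIS libraries did not overlap was 8 in granuloma, 7 in fibrosarcoma and 9 in mouse, beside 69.8%, 74.3% and 60.2% of all genes tested. By the adjusted p of the limma fit over all genes, 7 members were higher and 0 lower in granuloma, where 24.3% of all genes were called and 11.7% were higher. In fibrosarcoma 4 were higher and 1 lower, beside 36.3% of all genes called and 17.4% higher. In mouse 8 were higher and 1 lower, beside 45.1% called and 22.8% higher. In the same order DESeq2 called 7, 7 and 9 members, beside 36.5%, 43.3% and 53.7% of all genes, and edgeR 6, 5 and 9, beside 20.2%, 34.7% and 43.2%. The counts moved with those of all genes when a library was left out. Without granuloma IS 600 or IS 976, 0 members were called in granuloma, beside 1.52% and 0.665% of all genes, and 4 without its UIS 976, beside 8.08%. In fibrosarcoma 0 were called without UIS 2230 or UIS 2240, beside 0% of all genes, and 9 without IS 2240, beside 57.1%. In mouse 6 to 8 were called without a single library, beside 27.8% to 46.1%. These counts are of contrasts known when the members were chosen, and nothing is read from them.

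**Figure D1:**
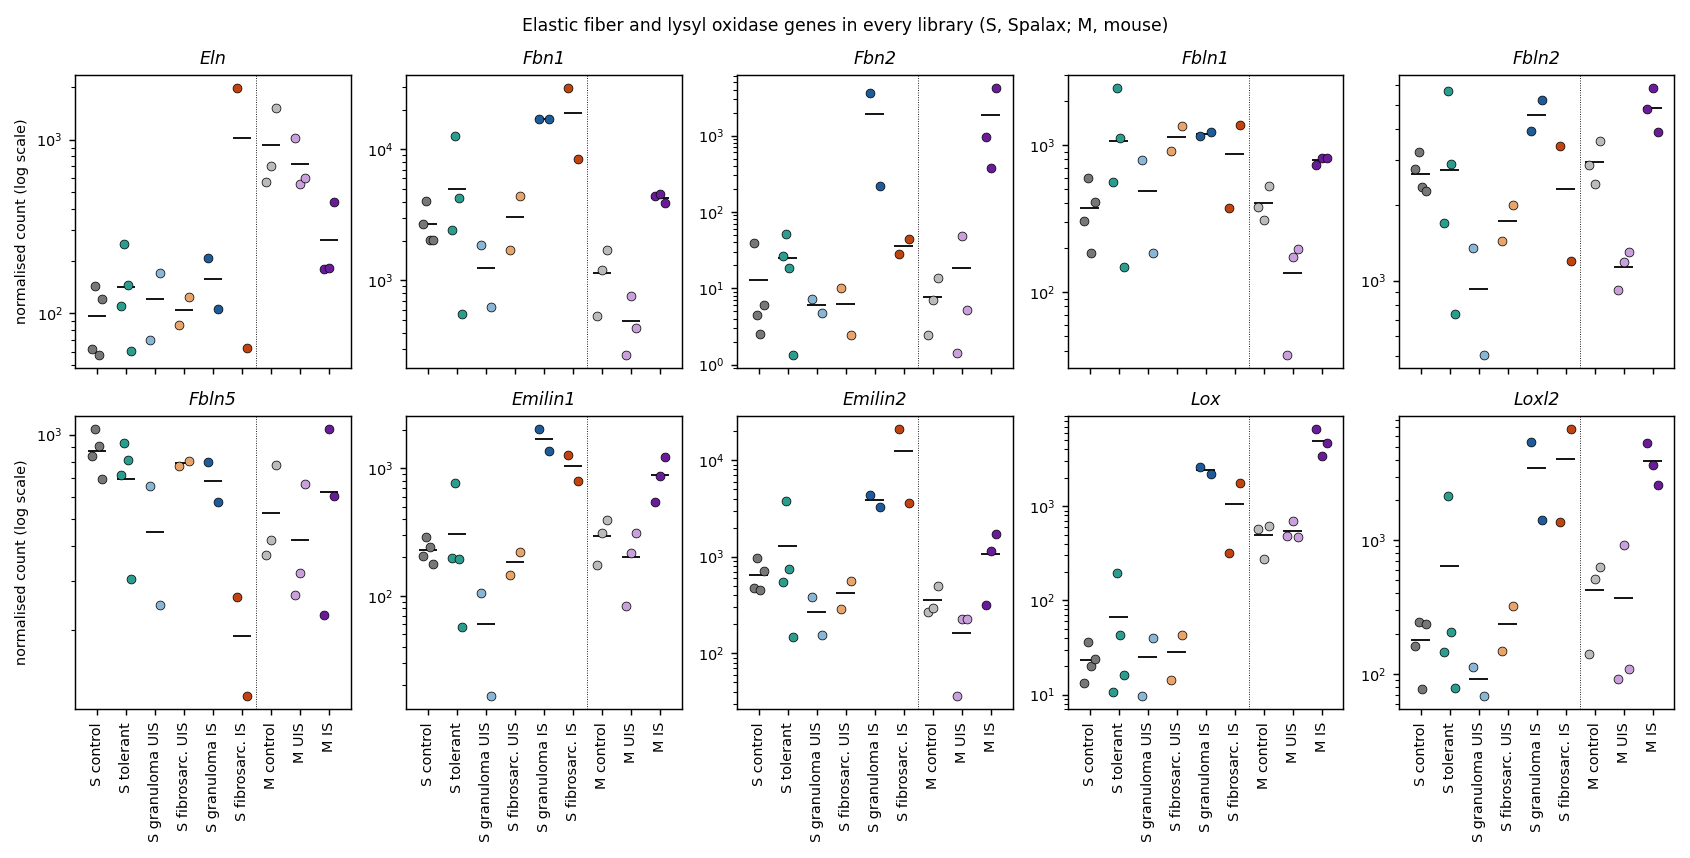
Normalised counts of the 10 genes in each of the 25 libraries (log axis), with 1 panel per gene and Spalax (S) left and mouse (M) right of the dotted line. Points are libraries and bars are group means. Lox lies between 9.65 and 196 in the Spalax muscle libraries and between 320 and 2615 in the Spalax tumors.

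Eln encodes tropoelastin, the monomer of the elastic core. In Spalax muscle it was low, at 61.8, 144, 57.4 and 121 normalised counts in controls 1042, 1075, 2095 and 6038, and at 110, 249, 145 and 60.3 in tolerant 2218, 2251, 2261 and 2375. In UIS it was 69.9 and 171 (granuloma 600 and 976) and 85.3 and 124 (fibrosarcoma 2230 and 2240). The tumors did not stand apart from muscle, with 208 and 106 in granuloma IS and 62.7 in fibrosarcoma IS 2240, except for fibrosarcoma IS 2230 at 1987. Within animals, Eln was higher in IS than in UIS in granuloma 600 and fibrosarcoma 2230 and lower in granuloma 976 and fibrosarcoma 2240. The fitted difference was 0.43 (SE 0.70) in granuloma and 1.78 (SE 1.69) in fibrosarcoma. Leaving out 1 library moved the first from -0.20 without UIS 600 to 1.07 without UIS 976, and the second from -0.70 without IS 2230 to 4.26 without IS 2240. DESeq2 gave 3.25 and edgeR 3.29 in fibrosarcoma.

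In mouse, Eln had 568, 702 and 1522 normalised counts in controls 1, 2 and 5, and 1024, 551 and 597 in UIS 512, 1019 and 1023. In IS it had 178, 182 and 435, so that the highest tumor lay below the lowest muscle library. The difference was -1.52 (SE 0.45), a 2.87-fold lower level, and it was lower in 3 of 3 animals. It was past the threshold of the fit over all genes without the animal as a block and not past it with the block, nor without UIS 1023, IS 1019 or either library of mouse 512. The total read scaling, which moved the median of all genes up, gave -0.46. Eln was the only member that was lower in mouse tumors without overlap.

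Fbn1 encodes the main fibrillin of microfibrils after birth. In Spalax it had 2692, 4034, 2023 and 2027 normalised counts in control, 2410, 12557, 4241 and 551 in tolerant, 1868 and 624 in granuloma UIS and 1706 and 4393 in fibrosarcoma UIS, in the order of animals used for Eln. The tumors had 17130 and 17102 (granuloma 600 and 976) and 29393 and 8480 (fibrosarcoma 2230 and 2240). All 4 tumors exceeded every muscle library but tolerant 2251, which lay above fibrosarcoma IS 2240. The IS against UIS difference was 3.99 (SE 0.58) in granuloma, and 3.20 without UIS 976 or 4.77 without UIS 600. In fibrosarcoma it was 2.53 (SE 0.78), and 1.63 without IS 2230 or 3.42 without IS 2240. In mouse Fbn1 had 539, 1195 and 1698 in control, 271, 758 and 435 in UIS and 4416, 4574 and 3881 in IS, with a difference of 3.26 (SE 0.38). The 3 mouse tumors thus agreed to within 1.18-fold and lay above all 6 muscle libraries. Of the exon bases of mouse Fbn1, 20.1% lie under an annotated gene of the other strand, and the strand setting of the counting is not stated.

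Fbn2, the fibrillin known mainly from embryonic tissue, was near the limit of detection in muscle. In Spalax control it had 38.6, 4.49, 2.49 and 5.97 normalised counts, and in tolerant 26.4, 51.8, 18.6 and 1.34, the last of these resting on 1 read. In UIS it had 7.24 and 4.71 (granuloma) and 9.95 and 2.42 (fibrosarcoma). Granuloma IS 600 had 3621 and granuloma IS 976 had 217, whereas fibrosarcoma IS 2230 and 2240 had 28.2 and 43.6. Both granulomas therefore lay above all other Spalax libraries, and both fibrosarcomas lay within the range of muscle. In mouse it had 2.44, 7.03 and 13.5 in control, 1.44, 48.4 and 5.16 in UIS and 958, 379 and 4205 in IS. The fitted differences were 7.02 (SE 1.37) in granuloma, 2.56 (SE 0.77) in fibrosarcoma and 6.99 (SE 1.31) in mouse. Since the UIS values rest on 1 to 40 reads, these depend on the constant added before the logarithm: with 5 in place of 1 they were 6.36, 1.93 and 6.26. They also rest on single libraries. In granuloma the difference was 4.99 without IS 600 and 9.04 without IS 976, in fibrosarcoma 1.72 without UIS 2240 and 3.40 without UIS 2230, and in mouse 6.05 without UIS 512 and 8.22 without UIS 1019.

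Fbln1 encodes a fibulin of elastic fibers and basement membranes. In Spalax it had 185 to 595 normalised counts in control and 149 to 2437 in tolerant. In granuloma it had 794 and 185 normalised counts in UIS and 1155 and 1230 in IS, with a difference of 1.63 (SE 0.72) that was 0.59 without UIS 976 and 2.68 without UIS 600. In fibrosarcoma it had 913 and 1349 in UIS and 373 and 1369 in IS, with a difference of -0.63 (SE 0.69) that had opposite signs in the 2 animals, and was -1.57 without IS 2240 and 0.30 without IS 2230. Mouse Fbln1 had 378, 306 and 525 in control, 37.4, 173 and 195 in UIS and 727, 811 and 815 in IS. The mouse tumors exceeded every muscle library, and the difference from UIS was 2.84 (SE 0.64), or 2.09 without UIS 512.

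Fbln2 encodes a fibulin that binds fibrillin and elastin. In Spalax it had 2777, 3232, 2355 and 2269 normalised counts in control and 736 to 5668 in tolerant. It had 1348 and 506 in granuloma UIS and 1433 and 2000 in fibrosarcoma UIS. It had 3911 and 5191 in granuloma IS, with a difference of 2.45 (SE 0.54), and 3414 and 1199 in fibrosarcoma IS, where the groups overlapped (difference 0.26, SE 0.57). The first was 1.74 without UIS 976 and 3.15 without UIS 600, and the second -0.50 without IS 2230 and 1.01 without IS 2240. Mouse Fbln2 had 2864, 2408 and 3581 in control, 918, 1184 and 1293 in UIS and 4800, 5820 and 3887 in IS. The order IS, control, UIS held without overlap, and IS exceeded UIS by 2.09 (SE 0.25).

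Fbln5, which binds tropoelastin and lysyl oxidase-like enzymes and is needed for elastic fiber assembly, was the member lower in Spalax fibrosarcoma. It had 841, 1045, 908 and 693 normalised counts in control, 718, 933, 809 and 306 in tolerant, 654 and 245 in granuloma UIS and 775 and 807 in fibrosarcoma UIS. Granuloma IS had 796 and 573, within the range of muscle, whereas fibrosarcoma IS had 263 and 116. The difference in fibrosarcoma was -2.17 (SE 0.47), a 4.50-fold lower level. It was -1.37 when scaled by total reads, which is no longer past the threshold, and -2.76 without IS 2230 and -1.58 without IS 2240. In granuloma it was 0.75 (SE 0.57), from 0.048 without UIS 976 to 1.46 without UIS 600. Mouse Fbln5 had 372, 421 and 778 in control, 268, 320 and 668 in UIS and 226, 1048 and 603 in IS. The mouse groups overlapped, with a difference of 0.44 (SE 0.63) that was positive in 1 of 3 animals, and ran from -0.064 without IS 1019 to 1.04 without IS 512.

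Emilin1 encodes a glycoprotein at the interface of elastin and microfibrils. In Spalax it had 206, 288, 239 and 178 normalised counts in control and 57.6 to 770 in tolerant. It had 105 and 16.5 in granuloma UIS and 145 and 222 in fibrosarcoma UIS. In tumors it had 2027 and 1373 (granuloma) and 1267 and 800 (fibrosarcoma), above all 12 muscle libraries. The differences were 5.28 (SE 0.91) and 2.48 (SE 0.39), and the first was 3.98 without UIS 976 and 6.58 without UIS 600. In mouse Emilin1 had 175, 311 and 390 in control, 83.5, 218 and 308 in UIS and 543, 876 and 1222 in IS, with a difference of 2.22 (SE 0.56).

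Emilin2, a related glycoprotein, reached its highest level in fibrosarcoma IS 2230. Spalax control had 478, 958, 449 and 716 normalised counts, granuloma UIS 377 and 155, and fibrosarcoma UIS 289 and 554. Tolerant 2218, 2251, 2261 and 2375 had 545, 3742, 753 and 146. Granuloma IS had 4360 and 3303, and fibrosarcoma IS had 21031 in animal 2230 and 3628 in animal 2240. Tolerant 2251 exceeded granuloma IS 976 and fibrosarcoma IS 2240. The differences were 3.96 (SE 0.51) in granuloma and 4.45 (SE 0.92) in fibrosarcoma. Without UIS 976 the first was 3.33 and without UIS 600 it was 4.60, and the second was 3.18 without IS 2230 and 5.71 without IS 2240. Mouse Emilin2 had 266, 296 and 491 in control, 36.0, 225 and 226 in UIS and 313, 1137 and 1718 in IS. The lowest mouse tumor lay within the range of control, and the difference from UIS was 2.78 (SE 0.92), from 1.91 without UIS 512 to 3.499 without IS 512.

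Lox, the founding lysyl oxidase, showed the largest IS against UIS difference of the lysyl oxidases in both Spalax tumors. It was scarce in Spalax muscle, at 13.3, 36.0, 19.96 and 23.9 normalised counts in control, 10.6, 196, 42.7 and 16.1 in tolerant, 9.65 and 40.0 in granuloma UIS and 14.2 and 42.4 in fibrosarcoma UIS. Granuloma IS had 2615 and 2176, and fibrosarcoma IS had 320 and 1783, all above the 12 muscle libraries. The difference was 6.84 (SE 0.74) or 114-fold in granuloma and 4.88 (SE 1.03) or 29.4-fold in fibrosarcoma. Leaving out 1 library moved the first from 5.86 without UIS 600 to 7.81 without UIS 976. The second was 3.64 without IS 2240, 4.12 without UIS 2230, 5.64 without UIS 2240 and 6.12 without IS 2230, so the folds are rough. Mouse Lox had 578, 272 and 616 in control, 487, 693 and 474 in UIS and 6613, 3434 and 4635 in IS, with a difference of 3.12 (SE 0.31) or 8.68-fold. The mouse tumors lay above all mouse muscle libraries, and mouse control and UIS overlapped.

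Loxl2, a lysyl oxidase relative with scavenger receptor domains, had 162, 244, 77.3 and 237 normalised counts in Spalax control, 147, 2136, 205 and 77.7 in tolerant, 113 and 68.3 in granuloma UIS and 148 and 324 in fibrosarcoma UIS. The tumors had 5472 and 1420 (granuloma) and 1358 and 6811 (fibrosarcoma). Tolerant 2251 exceeded granuloma IS 976 and fibrosarcoma IS 2230. The differences were 4.97 (SE 0.72) and 3.79 (SE 0.89). The first was 4.00 without IS 600 and 5.94 without IS 976, and the second 2.63 without IS 2240 and 4.95 without IS 2230. In mouse Loxl2 had 142, 512 and 630 in control, 92.1, 914 and 108 in UIS and 5385, 3682 and 2607 in IS, and the difference was 4.15 (SE 0.88), from 3.56 without UIS 512 to 5.21 without UIS 1019.

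**Figure D2:**
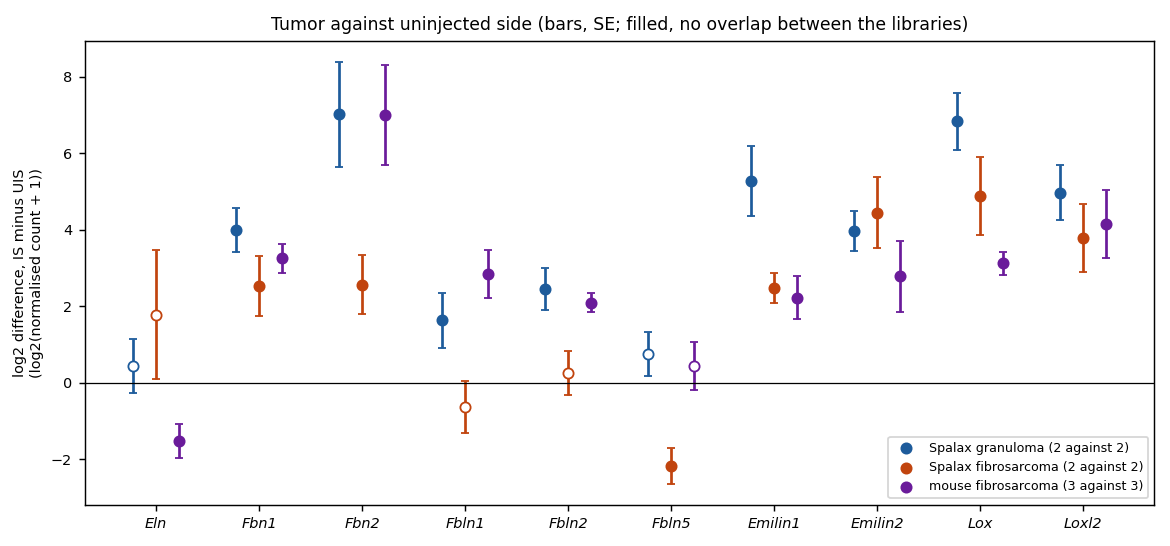
IS minus UIS on log2(normalised count + 1) for each gene in Spalax granuloma, Spalax fibrosarcoma and mouse fibrosarcoma. Points are fitted differences, bars are SE, and filled points mark genes whose IS and UIS libraries did not overlap. Lox runs from 3.12 to 6.84, whereas Eln in mouse and Fbln5 in Spalax fibrosarcoma lie below 0.

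The tumors of a group were not alike. Of the 10 members, 6 were higher in fibrosarcoma IS 2230 and 4 in fibrosarcoma IS 2240. The first was higher 31.7-fold for Eln, 5.80-fold for Emilin2, 3.47-fold for Fbn1, 2.85-fold for Fbln2, 2.27-fold for Fbln5 and 1.58-fold for Emilin1. The second was higher 5.58-fold for Lox, 5.01-fold for Loxl2, 3.67-fold for Fbln1 and 1.55-fold for Fbn2. These are single libraries, and no test was made. The sum of the fibroblast markers was 433872 in the first and 120166 in the second, and that of the macrophage markers was 36214 and 9976. In granuloma, 8 members were higher in IS 600 and 2 in IS 976, and the values differed by 16.7-fold for Fbn2 and by 1.00-fold for Fbn1. With 1 library per animal, animal and time after injection cannot be told apart, and in fibrosarcoma sex cannot be either.

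The ratio of members within a library does not depend on its size factor. In mouse, log2 Lox/Eln was -1.37 to 0.33 in the 6 muscle libraries and 3.41 to 5.21 in the 3 tumors, and log2 Fbn1/Eln was -1.92 to 0.77 and 3.16 to 4.65. In Spalax, Lox/Eln overlapped (-3.30 to -0.35 in muscle and -2.64 to 4.82 in tumors), because fibrosarcoma IS 2230 was at -2.64. Fbn1/Eln also overlapped in Spalax, at 1.87 to 5.65 in muscle and 3.89 to 7.33 in tumors. Fbn2/Fbn1 overlapped in Spalax (-10.50 to -6.10 and -10.01 to -2.24) and not in mouse (-7.56 to -3.95 and -3.59 to 0.12), and Loxl2/Lox overlapped in both species. Fbln5 was lower relative to Fbn1 in every tumor of both species than in any muscle library. Log2 Fbln5/Fbn1 was -3.75 to -0.85 in Spalax muscle and -6.80 to -4.43 in Spalax tumors, and -1.50 to 0.62 and -4.29 to -2.13 in mouse. Relative to Lox, log2 Fbln5/Lox was 2.25 to 6.00 in Spalax muscle and -3.94 to -0.28 in its tumors. In mouse it was -1.11 to 0.63 in muscle and -4.87 to -1.71 in tumors. These values are a description, since the differences of the members were known when they were chosen.

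**Figure D3:**
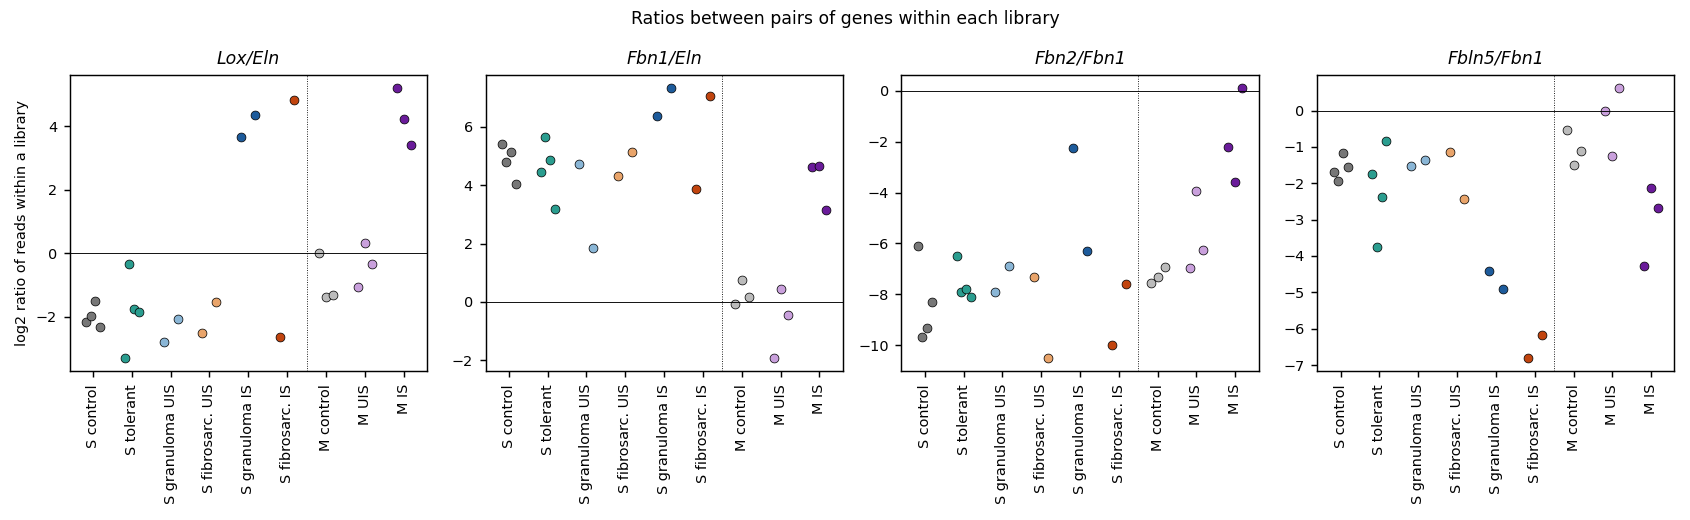
Log2 ratio of the reads of 2 members within each library (y axis) for Lox/Eln, Fbn1/Eln, Fbn2/Fbn1 and Fbln5/Fbn1, by group. Points are libraries. Fbln5/Fbn1 is lower in all 4 Spalax tumors (-6.80 to -4.43) than in the 12 muscle libraries (-3.75 to -0.85), and Lox/Eln in mouse separates tumors (3.41 to 5.21) from muscle (-1.37 to 0.33).

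The IS against UIS difference in fibrosarcoma minus that in granuloma ran over the 10 members from -4.46 (SE 1.82) for Fbn2 and -2.92 (SE 0.81) for Fbln5 to 1.34 (SE 2.01) for Eln, and it was negative for 8. It was -2.43 for Fbn2 without granuloma IS 600. Compared directly, fibrosarcoma IS minus granuloma IS ran from -4.62 (SE 1.39) for Fbn2 and -1.94 (SE 0.52) for Fbln5 to 1.25 (SE 1.68) for Eln, and was -2.59 for Fbn2 without granuloma IS 600. Both are contrasts of the tumor values in which Fbn2 and Fbln5 were known to stand out, so they are descriptions. In the first, limma, edgeR and DESeq2 called 0 members, beside 0%, 0% and 0.565% of all genes. In the second, limma and edgeR called 0 and DESeq2 called Fbn2, beside 0%, 0% and 1.05%. Time after injection and, in part, sex differed between granuloma and fibrosarcoma as well.

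The difference of Spalax fibrosarcoma minus that of mouse ran from -4.43 (SE 1.91) for Fbn2 and -3.48 (SE 1.05) for Fbln1 to 3.30 (SE 1.65) for Eln, which was 0.82 without fibrosarcoma IS 2230. These too are descriptions. Of the 10 members 0 were called by limma or edgeR, beside 3.95% and 3.53% of all shared genes tested, and DESeq2 called Eln and Fbln1, beside 15.4%. The terms for Lox and Loxl2 were 1.76 (SE 0.99) and -0.36 (SE 1.44). Each species has its own table, size factors and gene models. Dose of 3MCA, time after injection and, in part, sex differed between the species too, so species cannot be told apart from them.

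A further 54 genes were listed for elastic fibers and for the enzymes, receptors and matrix proteins that act with them. Of 50 tested in granuloma, 16 were called higher and 1 lower by the adjusted p of limma over all genes. In fibrosarcoma it was 17 and 3 of 51, and in mouse 25 and 3 of 47. In that order, 11.7%, 17.4% and 22.8% of all genes tested were called higher. These shares also stand beside the counts of the single lists below. The lists were set with earlier results known, and nothing is read from the counts. In all 3 comparisons 11 listed genes were higher, and the share of all genes was not computed for this. Of the other lysyl oxidases, Loxl1, which is tied to elastic fibers in particular, was higher by 4.54 (SE 0.36) in granuloma, 3.89 (SE 0.41) in fibrosarcoma and 3.26 (SE 0.64) in mouse, and Loxl3 by 4.94 (SE 0.85) in mouse, with 2.26 (SE 0.62) and 0.59 (SE 0.68) in granuloma and fibrosarcoma, neither past the threshold. Of the other fibulins and EMILIN relatives, Efemp2 (fibulin 4), which guides lysyl oxidase to tropoelastin, was higher by 5.31 (SE 0.74), 2.41 (SE 0.45) and 3.06 (SE 0.62). Emilin3 was lower in fibrosarcoma, with a difference of -2.85 (SE 0.52), and below the filter on low values in the other comparisons.

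Of the microfibril-associated proteins and latent TGF-beta binding proteins, 2, 1 and 3 of 7 were called higher in the order granuloma, fibrosarcoma and mouse. Mfap2 was higher by 4.80 (SE 1.17) in granuloma and 4.34 (SE 0.85) in mouse, and in fibrosarcoma it differed by 2.18 (SE 1.57). Ltbp1 was higher by 2.66 (SE 0.66), 2.36 (SE 0.63) and 3.46 (SE 0.49). Of the proteases and cofactors of maturation, 4 of 9, 4 of 9 and 5 of 8 were higher. Postn (periostin), a matrix protein that aids the activation of lysyl oxidase, was higher by 11.38 (SE 0.64), 3.70 (SE 0.51) and 5.14 (SE 1.21). Bmp1, the protease that cleaves the propeptide of lysyl oxidase, was higher by 4.74 (SE 0.62), 3.03 (SE 0.40) and 3.23 (SE 0.48). Of the ADAMTS and ADAMTS-like proteins, 0 of 8 were called in granuloma, 1 of 8 lower in fibrosarcoma, and 2 higher and 2 lower of 7 in mouse. Adamtsl2 was the gene called in fibrosarcoma, at -3.45 (SE 0.72), beside 0.56 (SE 1.497) and -0.57 (SE 1.18). Adamts6 was called in mouse at 3.33 (SE 0.35), beside 0.81 (SE 0.79) in granuloma and 1.82 (SE 0.76) in fibrosarcoma, and so was Adamtsl5 at -1.97 (SE 0.61), beside -3.33 (SE 1.24) and -4.45 (SE 1.24).

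The elastin-degrading enzymes were called higher in 5, 6 and 5 of 7 tested, and 0 were lower. Mmp12, the macrophage elastase, was higher by 7.72 (SE 0.75) in granuloma, 6.19 (SE 0.90) in fibrosarcoma and 4.49 (SE 1.03) in mouse, and the gelatinase Mmp9 by 5.44 (SE 0.81) and 5.54 (SE 0.56) in the Spalax tumors, with 3.04 (SE 1.21) in mouse, not past the threshold. The cathepsin gene Ctss was higher by 3.38 (SE 0.37) in fibrosarcoma and 4.35 (SE 1.14) in mouse, with 3.44 (SE 0.94) in granuloma, not past the threshold. In the elastin receptor complex, Glb1 was higher by 2.30 (SE 0.52), 1.70 (SE 0.25) and 3.24 (SE 0.65). Of the integrins that bind these proteins, 1, 2 and 5 of 7 were higher, Itga5 among them in each, by 2.82 (SE 0.31), 2.31 (SE 0.39) and 2.91 (SE 0.27).

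Muscle of animals that differed in their response to 3MCA was then compared, to ask whether the genes differ away from the tumor. No muscle of tumor-bearing animals was taken before the tumor grew. Tumor-bearing UIS (4 libraries) and control (4 libraries) gave 0 of 9 members past the threshold by limma, edgeR or DESeq2, beside 0%, 0% and 3.71% of all genes. Fbn2 was below the filter on low values. The unadjusted p of limma was under 0.05 for 2 members, beside 16.6% of all genes. For Fbln2 the difference was -1.15 (SE 0.37, limma adjusted p = 0.225), with 506 to 2000 normalised counts in UIS and 2269 to 3232 in control, which did not overlap, beside 12.7% of all genes. For Emilin2 it was -0.99 (SE 0.40, limma adjusted p = 0.267). The UIS libraries are also an arm of the IS against UIS differences, so these p-values are not free of the choice of members. Control and tolerant libraries carried a pair of index sequences and those of tumor-bearing animals a single one. Index type and tumor therefore cannot be told apart, here and in the comparisons of UIS and of tumors with tolerant. Injection of 3MCA and, in part, sex also differed between tumor-bearing UIS and control. Between tumor-bearing UIS and tolerant, side of the neck and, in part, sex and time after injection differed too.

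Tolerant and control muscle differed in 0 of 10 members by limma, edgeR and DESeq2, beside 0%, 0% and 0.428% of all genes, and 0 members had an unadjusted p under 0.05 by limma, beside 5.23%. Side of the neck and, in part, sex differed between these groups as well. The estimates were between -0.43 for Fbln5 (SE 0.33, limma adjusted p = 0.923) and 1.02 for Fbln1 (SE 0.74, limma adjusted p = 0.923). For Lox the estimate was 0.66 (SE 0.81) and for Loxl2 0.69 (SE 0.89), so differences of this size were within the spread of the libraries. DESeq2 gave no adjusted p for Loxl2, here or between tumor-bearing UIS and tolerant. Tumor-bearing UIS against tolerant gave 0 of 9 members by all 3 tools, beside 0.00713% of all genes by limma and by edgeR and 0.271% by DESeq2, and 0 with an unadjusted p under 0.05 by limma, beside 5.12%. Granuloma UIS and fibrosarcoma UIS likewise gave 0 of 9 by all 3 tools, beside 0% of all genes by limma and by edgeR and 0.915% by DESeq2. There 0 members had an unadjusted p under 0.05 by limma, beside 4.06%. Without granuloma UIS 600, which leaves 1 library in that group, the last comparison called 7 members, beside 37% of all genes.

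The tolerant group was spread at both ends, with tolerant 2251 high and tolerant 2375 low. Tolerant 2251 was the highest of the 12 Spalax muscle libraries in 9 of 10 members, all but Fbln5, and its median log2 difference from the median of the other 11 was 2.37. It exceeded that median 14.4-fold for Loxl2, 9.82-fold for Lox, 8.68-fold for Fbn2, 7.83-fold for Emilin2, 6.19-fold for Fbn1, 4.33-fold for Fbln1, 3.97-fold for Emilin1, 2.83-fold for Fbln2, 2.27-fold for Eln and 1.204-fold for Fbln5. Its Lox was 0.114 of the mean of the 4 Spalax tumors and its Fbn2 0.053, whereas its Fbn1 was 0.697 and its Loxl2 0.567 of that mean. Its Fbln1, Fbln5 and Fbln2 lay above all 4 tumors, at 2.36, 2.13 and 1.65 times their mean. The fibroblast marker sum was 198021 in this library and 8606 to 49357 in the other 11, the macrophage sum was 14156 in it, and the muscle fiber sum was 942241, the lowest of the 12. Tolerant 2375 and granuloma UIS 976 were the lowest library in 4 members each, with median log2 differences from the other 11 of -1.69 and -1.70. In the tolerant libraries other than 2251, Fbn1 still ran from 551 to 4241 normalised counts. Without tolerant 2251, still 0 members were called between tolerant and control.

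**Figure D4:**
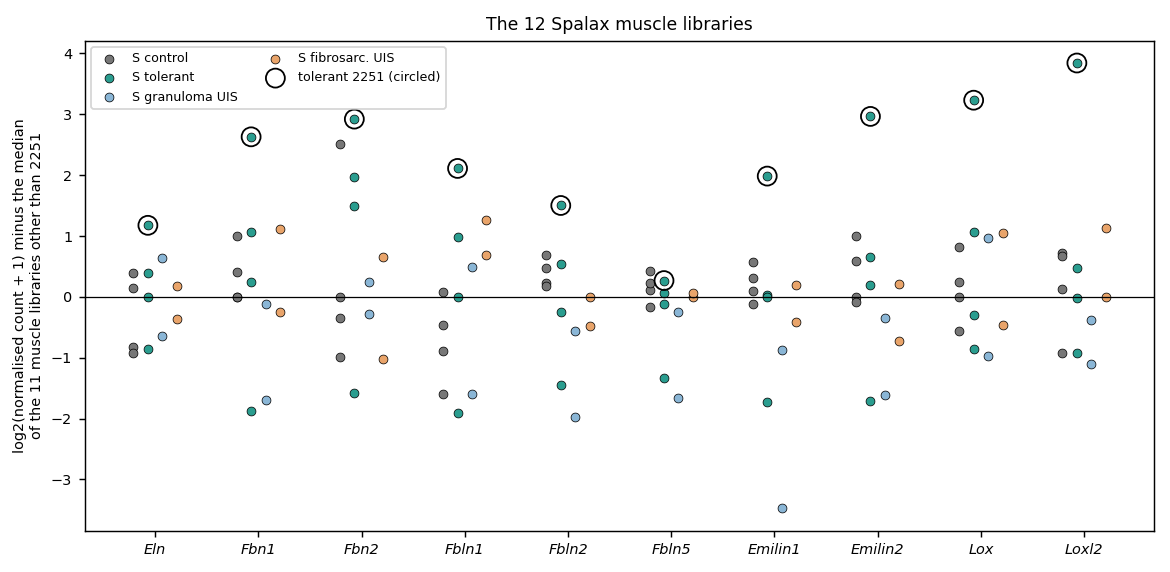
Log2(normalised count + 1) of each member in the 12 Spalax muscle libraries, minus the median of the 11 other than tolerant 2251 (y axis). Points are libraries, colored by group, and circles mark tolerant 2251, which is the highest in 9 of 10 members and near the others in Fbln5.

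Set against tolerant muscle, the 4 Spalax tumors together had higher Lox by 5.22 (SE 0.95), Loxl2 by 3.45 (SE 0.99), Emilin2 by 3.06 (SE 0.94), Emilin1 by 2.66 (SE 0.67) and Fbn1 by 2.50 (SE 0.84). These values are descriptions of tumor libraries known when the members were chosen, and nothing is read from the counts that follow. The 5 of 10 members were called by limma, beside 46.4% of all genes called and 22.4% higher. DESeq2, which gave no adjusted p for Eln, Fbn2 and Emilin2, called 4, beside 50.2%. By edgeR 3 were called, beside 44.1%, which were Lox, Emilin1 and Fbn2. Fbn2 differed by 3.48 (SE 1.53) and was not called by limma. The libraries of the groups did not overlap in 2 members, Lox and Emilin1, beside 41.7% of all genes. Without tolerant 2251, 5 members were called, beside 53% of all genes, and the differences were 6.03 for Lox, 4.44 for Loxl2, 3.87 for Emilin2, 3.30 for Emilin1 and 3.21 for Fbn1. Without tolerant 2218, 2261 or 2375, 2 members were called in each case, beside 34.4%, 36.3% and 36.3% of all genes, and without fibrosarcoma IS 2230 there were 3, beside 42%. Fbn1 was 1.70, Emilin2 2.32, Emilin1 2.06 and Loxl2 2.86 without tolerant 2375. The comparison shares the tumor libraries with those above. Index type and, in part, sex differed between tumors and tolerant muscle as well. Of the 54 other genes, 16 were called higher and 4 lower of 49 tested.

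In mouse, UIS and control were compared to see whether muscle away from the tumor differed from that of untreated animals. By limma 0 of 9 members passed, by edgeR 0 and by DESeq2 1, beside 0%, 0% and 2.31% of all genes, and 2 had an unadjusted p under 0.05 by limma, beside 11%. For Fbln2 the difference was -1.38 (SE 0.25, limma adjusted p = 0.293, DESeq2 adjusted p = 0.00191), without overlap between 918 to 1293 and 2408 to 3581 normalised counts. For Fbln1 it was -1.85 (SE 0.63, limma adjusted p = 0.441). With Emilin2, 3 members did not overlap between the groups, beside 21.2% of all genes. The fibroblast marker sum was 25470 to 61404 in control and 5227 to 30820 in UIS, and the adipocyte sum was 91616 to 154668 and 10269 to 86715, and their part in these values was not tested. Control libraries again carried paired indices and UIS libraries single ones. As in Spalax, UIS is an arm of the IS against UIS differences, so the p-values here are not free of the choice of members.

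Levels between genes were compared only in mouse and per kb of annotated exon. In control muscle the order of mean normalised counts per kb began with Fbln2 at 463 ± 92.9 (SD, n = 3), followed by Eln at 115 ± 63.8, Lox at 102 ± 39.4, Fbn1 at 94.4 ± 47.9 and Fbln1 at 92.3 ± 25.5. It went on with Loxl2 at 79.2 ± 47.1, Fbln5 at 75.7 ± 32.1, Emilin2 at 63.8 ± 22.1, Emilin1 at 59.2 ± 22.02 and Fbn2 at 0.579 ± 0.419. Fbln2 at the top and Fbn2 at the bottom stood clear, and the libraries of neighbors among the 8 genes between them overlapped. By the mean in tumors Lox came first at 1024, followed by Fbln2 at 759, Loxl2 at 720 and Fbn1 at 354, and Eln came last at 32.7. There the libraries of Lox and Fbln2, of Fbln2 and Loxl2, and of Eln and its neighbor Fbln5 overlapped. The longest annotated transcript in place of all exons left the rank of 4 genes in control, 3 in UIS and 8 in IS.

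**Figure D5:**
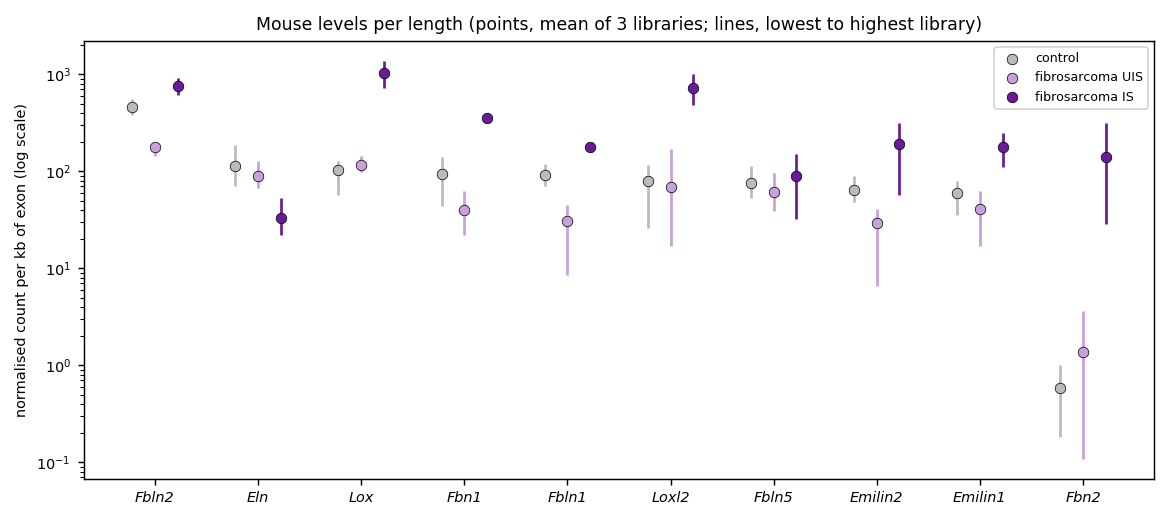
Mean normalised count per kb of exon in mouse control, UIS and IS (log axis), with lines from the lowest to the highest of 3 libraries and genes ordered by their control level. Eln has the second place in control (115) and the last in tumors (32.7), and Lox is at 102 in control and 1024 in tumors.

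The genes with the pattern most like a member were found by the mean absolute difference of centred log2 values over the 16 Spalax or the 9 mouse libraries, where smaller is more alike. In Spalax the nearest was Fstl1 for Fbn1 (0.22), Loxl3 for Fbln2 (0.19), Mrc2 for Emilin1 (0.31), Adamts14 for Lox (0.47), Pnma2 for Loxl2 (0.50), Fgfr1 for Eln (0.46) and Astn2 for Fbln5 (0.30). In mouse it was Cercam for Fbn1 (0.23), Tnc for Fbn2 (0.50), Antxr2 for Fbln1 (0.20), Thbs1 for Lox (0.24), Col5a2 for Loxl2 (0.31), Ficd for Eln (0.32) and Cd93 for Fbln5 (0.24). Over both species Fbn2 in Spalax had the most distant neighbor, Igsf10 at 1.03.

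In the mouse genome (GRCm38, GENCODE vM21 gene models) Eln lies on chromosome 5 from 134702593 to 134747323 and Emilin1 on the same chromosome from 30913402 to 30921277. Fbn1 lies on chromosome 2 from 125300594 to 125507993, Fbln1 on chromosome 15 from 85205949 to 85286535, and Fbln2 on chromosome 6 from 91212455 to 91272540. Fbln5 lies on chromosome 12 from 101746565 to 101819055, Emilin2 on chromosome 17 from 71252172 to 71311978, and Loxl2 on chromosome 14 from 69609068 to 69695834. Opposite-strand genes cover 5.57% of the exon bases of Loxl2 and 3.3% of those of Eln.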

How the data were processed

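RNA-seq libraries of Spalax (16) and mouse (9) were prepared by the authors with a strand-specific kit, and the reads were trimmed (Trimmomatic), mapped (TopHat2; a published genome for Spalax, that of NCBI for mouse) and counted per gene (htseq-count). The submitters' processing notes name TopHat 1.4.1, HTSeq, DESeq and GRCm38. The strand setting of the counting is not given in the sources used here. As deposited, each value is a normalised signal: the count of reads of a gene, divided by the size factor of its library. Values of all libraries were whole multiples of the value of 1 read (tolerance 0.02 reads), so whole reads were recovered. In the Spalax table a comma inside a gene name stood for a lower-case t (2387 names), and values were read from the line end, where the position of fibrosarcoma UIS 2230 is shifted in those rows. Reads carry no molecular identifiers, and no intervals were computed from read depth.

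Groups came from the labels. The read name in the label of granuloma UIS 976 carries another animal number, and its other labels were followed. limma 3.58.1 in R 4.3.3 (lmFit, eBayes with trend) was fitted to log2(value + 1) of all genes that reached 10 in at least n libraries, n being the size of the smaller group, with Benjamini-Hochberg adjustment over all genes and a threshold of 0.05. No covariate was used, and libraries of other groups stayed out of each fit. edgeR 4.0.16 (quasi-likelihood) and DESeq2 1.42.0 on recovered reads, other scalings, other pseudocounts (0.1 and 5), no low filter, 1 model over all groups, and leaving out each library were alternatives. The scripts were tested on simulated data. Ratios within a library used reads + 0.5.

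IS and UIS libraries of an animal carry its number, which gives the pairing. After subtraction of group means, the libraries of an animal correlated at 0.01 in granuloma, 0.00 in fibrosarcoma and 0.05 to 0.18 in mouse, and a fit with the animal as a block was run beside the main one.

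All 10 members are named. Of each list of other genes, at most the 2 called genes with the largest absolute difference were named, and the nearest genes by pattern. Members and lists were chosen with earlier results of these data known. Figures were drawn with matplotlib 3.10.9.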

Additional observations from a re-analysis of the deposited data

Results flagged for a closer look

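The 10 members in Spalax control and in tolerant gave 20 sets of 4 values. Of these, 3 held a library whose gap to the nearest other exceeded Dixon's critical value, where chance gives about 1 in 20. The sets share libraries, so the 3 are not weighed against that rate. In Spalax control, Fbn2 was 38.6 in animal 1042 and 2.49 to 5.97 in the other 3, a gap of 0.904 of the range. In tolerant muscle, animal 2251 was apart in Loxl2 (0.938 of the range) and in Emilin2 (0.831), the library that was highest in 9 of 10 members. Its fibroblast marker sum of 198021 stood beside 8606 to 49357 in the other muscle libraries, and the part of that in its levels was not tested.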

How the results depend on the processing

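Leaving out single libraries gave 0 to 7 members called in granuloma (7 with all libraries), beside 0.665% to 19.6% of all genes, and 0 to 9 in fibrosarcoma (5), beside 0% to 57.1%. It gave 6 to 8 in mouse (9), beside 27.8% to 46.1%, and 2 to 5 in the tumors against tolerant (5), beside 34.4% to 53%. It gave 0 to 7 in fibrosarcoma UIS against granuloma UIS (0), beside 0% to 37%, and 0 to 1 in the species interaction (0), beside 0.0361% to 7.02%. In the granuloma fit without IS 600 or IS 976, and in the fibrosarcoma fit without UIS 2230 or UIS 2240, 0 members were called, and 4 without granuloma UIS 976. The 9 came without fibrosarcoma IS 2240. In the tumors against tolerant 2 were called without tolerant 2218, 2261 or 2375 and 3 without fibrosarcoma IS 2230. The 7 came without granuloma UIS 600. Leaving out both libraries of a mouse, an alternative chosen after seeing the data, gave 5 members without 1019, 0 without 1023 and 7 without 512, beside 25.8%, 0.756% and 49.4% of all genes. A group left with 1 library is assumed to vary like the other. edgeR called 3 members in the tumors against tolerant. DESeq2 called 7 in fibrosarcoma, with Eln and Fbn1 beyond the limma calls, 1 in fibrosarcoma IS against granuloma IS, 1 in mouse UIS against control and 2 in the species interaction. The rank of 4 genes per kb in mouse control and 3 in UIS was kept with the longest transcript.

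Signs changed only where the difference was not past the threshold. Without single libraries Eln in granuloma ran from -0.20 (without UIS 600) to 1.07, and was -0.05 without IS 600. In fibrosarcoma Eln ran from -0.70 to 4.26, Fbln1 from -1.57 to 0.30 and Fbln2 from -0.50 to 1.01, each crossing 0 without IS 2230, and Fbln1 was 0.17 when scaled by total reads. Mouse Fbln5 ran from -0.20 (without both libraries of mouse 1019) to 1.04, and was -0.064 without its IS. Against tolerant, Eln ran from -0.16 (without fibrosarcoma IS 2230) to 1.496, and without single tolerant libraries Fbln1 ran from -0.32 to 1.02 and Fbln2 from -0.0029 to 0.978, both lowest without 2375. There Fbln1 was -0.018 by edgeR and -0.046 by DESeq2. The cause was not tested. With the animal as a replicate block, Eln in mouse kept its difference of -1.52 and was no longer past the threshold, and the call of no other member changed. Of the single-gene results under all alternatives, 728 kept direction and side of the threshold, 78 lost it, 20 gained it and 13 changed sign. In Spalax muscle Fbn2 rests on 1 to 69 reads, so depth limits it.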
